A study of Homo sapiens with 12 samples.

Results

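Axon guidance genes encode the ligands and receptors through which growing axons, and also migrating tumour cells, are attracted or repelled. Here they are a list of 46 genes, chosen by symbol and matched to the Ensembl gene IDs of the count table: semaphorins, plexins and neuropilins, Slit and Robo, netrins and their receptors, ephrins and Eph receptors. Of these, 39 were among the 14698 genes of the table: 4 secreted semaphorins, 11 membrane-bound semaphorins, 9 plexins and neuropilins, SLIT2 with ROBO1, 4 netrins and netrin receptors, 4 ephrins and 5 Eph receptors. SEMA3D, SEMA3E, SEMA5B, ROBO2, SLIT3, DCC and EPHA3 were not analysed here.

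Semaphorins signal mainly through plexins, whose cytoplasmic domain acts on the cytoskeleton and on adhesion, and the secreted class 3 semaphorins need a neuropilin as the co-receptor. Slits signal through Robo receptors and netrins through DCC and UNC5 receptors. Ephrins are held at the cell surface and activate Eph receptor tyrosine kinases on the neighbouring cell, and signal back into their own cell. In glioma these families are known for roles in invasion and in the growth of vessels.

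T98-G, an established human glioblastoma line, received either onametostat at 1 µM, which blocks PRMT5, an enzyme that methylates arginines in proteins, or the vehicle, 0.1% DMSO, over 48 h. Each treatment was run in normoxia (20% oxygen) and in hypoxia (1% oxygen), with 3 experiments per condition and 12 libraries of polyadenylated RNA in all. All libraries come from 1 cell line, so the p-values describe the spread between experiments on this line. In such bulk samples, fewer cells of a kind and less RNA per cell cannot be told apart.

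Total counts were 7641280 to 45977729 in 11 libraries, and 403279 in library 3 of onametostat in hypoxia. The lowest of the 11 was library 2 of that condition, which stays in the results without library 3. By the read totals of the study, library 3 had more reads after filtering than library 2. In libraries 2 and 3 a smaller part of these reads became counts than in the others, the smallest in library 3. The cause was not tested. In library 3 a count of 0 allows a level of up to 8.07 CPM (counts scaled to a common library size, with TMM factors), a limit that covers counting error only, against 0.145 and 0.399 CPM in libraries 1 and 2 of the condition. It held 0 counts of 7 guidance genes (SEMA3F, SEMA4G, SEMA6A, SEMA6C, SEMA6D, NTN1 and UNC5C), and 53 genes with at least 10 counts stood at 4 times or more above every other library. PLXNB2 was the 1 guidance gene among them. For the other 38 guidance genes, the level in library 3 was a median of 0.940 times the mean of libraries 1 and 2. Counts of called guidance genes in the comparisons with this condition are therefore given with and without library 3. Counts beyond 2-fold, of known targets of hypoxia and of the further lists are given with all libraries only. Leaving it out kept the call of 18 of the guidance genes called for onametostat in hypoxia and of 13 of those called for hypoxia with onametostat. Their log2 fold changes moved by at most 0.04 and 0.03. The genes whose call changed are named, and PLXNB1 and PLXNB2 are given with both values. Directions throughout are those of the labelled conditions, taken as given. Onametostat acts on the enzyme and not on a transcript, and the treatment labels were not tested. If they were exchanged, the sign of each onametostat value below would be reversed. Of 8 markers of the line 6 were measured (VIM, CD44, FN1, S100A6, TNC and MGMT), and they summed to 3801 to 4604 CPM. Of 7 neuron markers 3 were measured, with sums of 90.2 to 104 CPM over all libraries, and of 5 immune cell markers 0.

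Per kilobase of exon, the levels in DMSO in normoxia spanned from 0.08 CPM for UNC5C, a netrin receptor, to 61.2 CPM for PLXNB2, a plexin of class 4 semaphorins. EPHA2, an Eph receptor (51.7), and SEMA3C, a secreted semaphorin (36.3), came next. NRP1 stood at 15.4, EPHA4 at 14.2 and PLXND1 at 13.0 CPM per kilobase. Among the semaphorins in the membrane, SEMA4B (6.84) and SEMA4C (5.78) were higher than SEMA6A (0.28) and SEMA6C (0.43). NTN1, the founding netrin of vertebrates, was at 0.11 CPM per kilobase.

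The sequences before the starts of 6 genes are shown because these genes carry the oxygen results: all but SEMA6D were higher in hypoxia under both treatments with log2 fold changes above 0.5, and SEMA6D was higher in hypoxia with DMSO and lower with onametostat in both oxygenations. SEMA6A shares the latter pattern and has no entry in the sequence table used. Hypoxia-inducible factors bind the core letters ACGTG or GCGTG, and matches on either strand are in capitals. The sequences are from RefSeq (GRCh38.p14), are given 5′ to 3′ along the gene, and leave out bases that GENCODE v44 places in exons. For a gene with several starts, the one with the longest run of bases outside exons was taken. Further starts of SEMA3C, SEMA6D and EPHA4 are not shown, and those of SEMA6D and EPHA4 include matches to GCGTG. SEMA3C is at chr7:80922390-80922639 (minus strand), SEMA5A at chr5:9546076-9546169 (minus), SEMA6D at chr15:47183839-47184088 (plus), PLXNA2 at chr1:208244385-208244634 (minus), SLIT2 at chr4:20251655-20251904 (plus) and EPHA4 at chr2:221572359-221572505 (minus).
SEMA3C: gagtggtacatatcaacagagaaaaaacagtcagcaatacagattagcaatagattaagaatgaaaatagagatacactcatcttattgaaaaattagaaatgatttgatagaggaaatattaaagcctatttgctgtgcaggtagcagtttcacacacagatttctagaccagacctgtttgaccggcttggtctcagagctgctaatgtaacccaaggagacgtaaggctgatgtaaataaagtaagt
SEMA5A: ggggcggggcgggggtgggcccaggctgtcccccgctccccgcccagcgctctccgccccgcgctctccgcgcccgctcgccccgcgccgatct
SEMA6D: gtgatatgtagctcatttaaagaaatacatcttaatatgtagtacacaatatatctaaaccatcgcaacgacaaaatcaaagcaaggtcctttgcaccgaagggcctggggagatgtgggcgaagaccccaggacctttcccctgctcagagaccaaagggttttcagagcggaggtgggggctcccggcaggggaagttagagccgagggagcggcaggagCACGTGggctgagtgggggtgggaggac
PLXNA2: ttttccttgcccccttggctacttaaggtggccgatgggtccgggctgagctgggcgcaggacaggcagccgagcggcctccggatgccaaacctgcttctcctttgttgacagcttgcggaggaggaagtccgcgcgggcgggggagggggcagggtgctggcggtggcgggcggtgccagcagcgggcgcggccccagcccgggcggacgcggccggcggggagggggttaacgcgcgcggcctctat
SLIT2: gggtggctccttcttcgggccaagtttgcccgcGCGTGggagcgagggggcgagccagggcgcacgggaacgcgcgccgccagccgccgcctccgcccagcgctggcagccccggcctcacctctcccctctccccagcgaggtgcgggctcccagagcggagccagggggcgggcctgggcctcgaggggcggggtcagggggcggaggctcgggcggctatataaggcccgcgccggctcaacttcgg
EPHA4: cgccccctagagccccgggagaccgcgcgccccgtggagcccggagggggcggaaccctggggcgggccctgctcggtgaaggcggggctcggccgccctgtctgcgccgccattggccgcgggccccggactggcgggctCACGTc

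SEMA6D carries CACGTG, in which ACGTG reads on both strands, SLIT2 carries GCGTG and EPHA4 carries ACGTG on the opposite strand. The stretches of SEMA3C, SEMA5A and PLXNA2 hold none of these letters. Sequences were found for 33 of the 39 genes, in 52 windows of 250 bases since some genes have several starts. A match was present in 26 of 52 windows (50%) and in 43.2% of 35114 windows of all genes. It was present in 7 of 16 windows of genes higher in hypoxia with DMSO and in 19 of the other 36. The median share of G and C was 71.8% in the 52 windows and 58% in the windows of all genes, and the shares with a match were not adjusted for it. A match describes letters and not a bound site.

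The comparison of onametostat with DMSO asks how inhibition of PRMT5 alters these genes. In normoxia 11 of 39 rose, where 27.2% of all genes tested were higher, and 10 fell, where 29.3% were lower (edgeR's quasi-likelihood test, adjusted p under 0.05). In hypoxia 10 of 39 were higher against 25.6% of all genes, and 9 were lower against 26.4%. Without library 3, 11 were higher and 12 lower in normoxia (28.9% and 30.4% of all genes), and 9 higher and 10 lower in hypoxia, where 26.7% and 27.0% of all genes were called. The shares of called guidance genes were thus near those of all genes. The median log2 fold change was -0.05 in normoxia and -0.04 in hypoxia, against -0.01 over all genes in both. In both oxygenations 8 genes rose, with 20.7% of all genes doing so, and 7 fell, against 22.2% of all genes. Without library 3, 8 rose (22.1% of all genes) and 9 fell (22.7%), with PLXNB1 and PLXNB2 added. None moved in opposite directions, which 0.156% of all genes did and 0.177% without library 3. Beyond a 2-fold change, 3 of 39 were lower in normoxia (4.35% of all genes) and 4 in hypoxia (5.44%), and all 4 of the latter were semaphorins of classes 5 and 6.

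**Figure D1:**
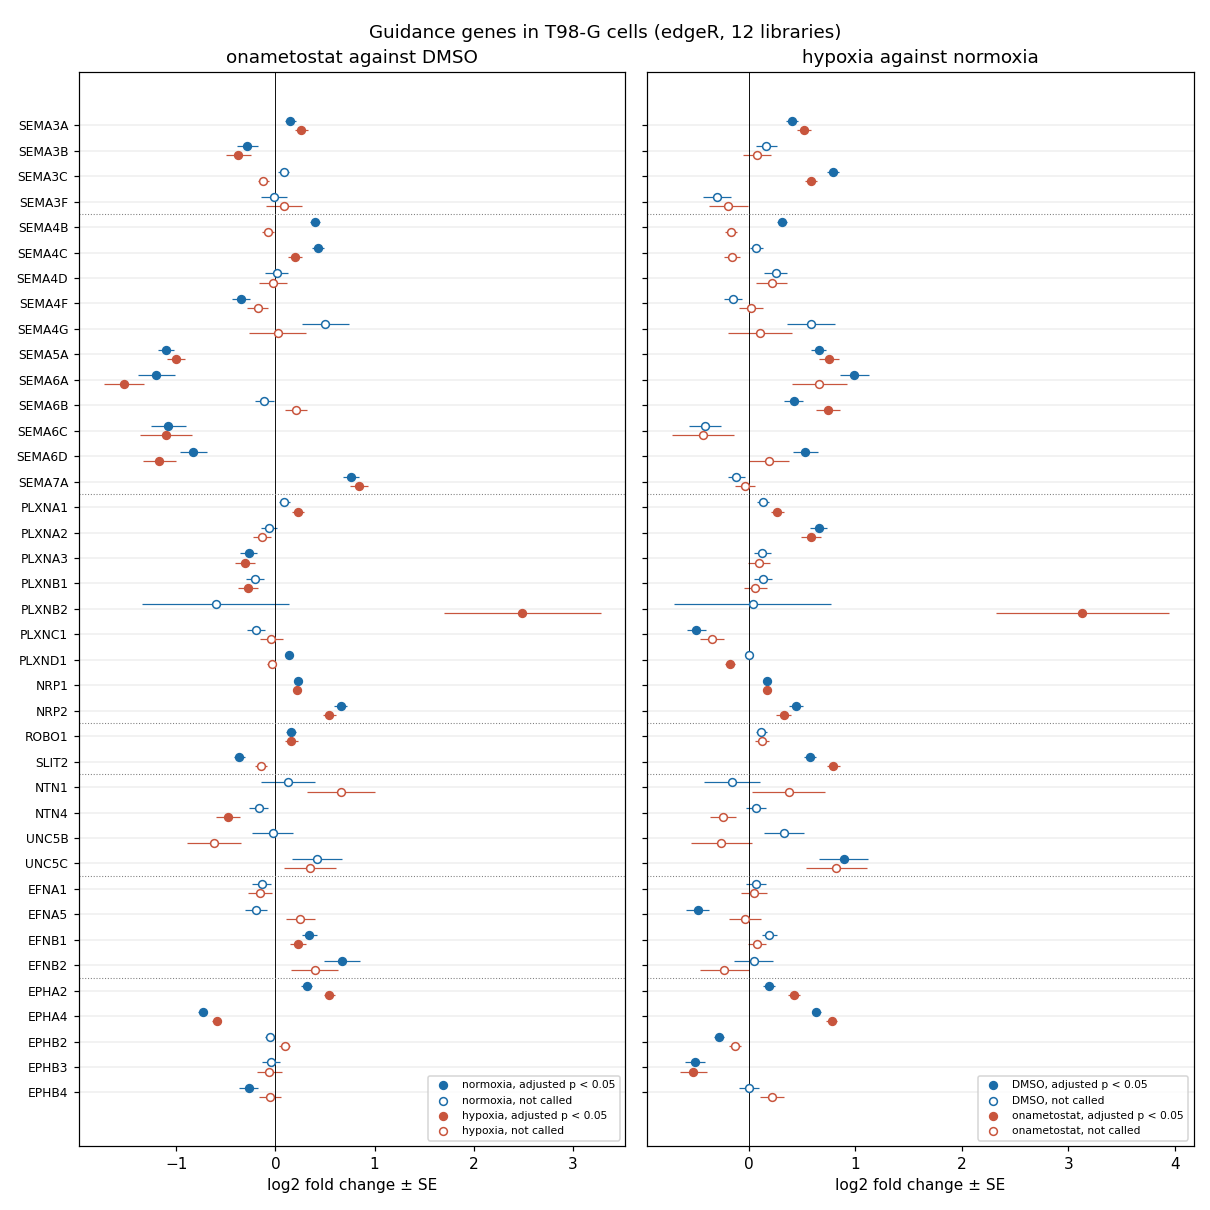
Log2 fold change ± SE of the 39 guidance genes, grouped by family from secreted semaphorins at the top to Eph receptors at the bottom, for onametostat against DMSO (left) and hypoxia against normoxia (right), in blue for normoxia (left) or DMSO (right) and in red for hypoxia (left) or onametostat (right). Filled points passed an adjusted p of 0.05. SEMA5A, SEMA6A, SEMA6C and SEMA6D lie left of 0 at the left, and the bars of PLXNB2, with SE of 0.74 to 0.81, are the widest.

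Among the guidance genes, transmembrane semaphorins held the largest decreases in the libraries labelled onametostat. SEMA5A, which has thrombospondin repeats next to its semaphorin domain, was at 32.7, 33.5 and 33.2 CPM with DMSO and at 15.3, 16.9 and 13.6 CPM with onametostat in normoxia. In hypoxia it was at 49.8, 49.3 and 57.6 CPM with DMSO and at 26.8, 25.0 and 24.2 CPM with onametostat. All libraries with onametostat lay below all libraries with DMSO at the same oxygenation. Of all genes, 33.2% were apart in this direction in normoxia and 27.5% in hypoxia, and 31.2% and 20.9% were apart upwards. These shares apply to each gene below whose groups were apart with onametostat. The log2 fold change was -1.10 ± 0.08 (SE) in normoxia (adjusted p = 4.42e-09) and -1.01 ± 0.09 in hypoxia (adjusted p = 8.33e-08), with an adjusted p of 4.23e-09 in hypoxia without library 3.

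SEMA6A, a ligand of class A plexins, was low in these cells. It was at 2.74, 3.17 and 3.19 CPM with DMSO and 1.11, 1.23 and 1.67 CPM with onametostat in normoxia. In hypoxia it was at 5.67, 5.65 and 6.77 CPM with DMSO, and at 2.41, 1.46 and 0 CPM with onametostat. The groups did not overlap, and the 0 of library 3 carries little weight at its low total of counts. SEMA6A fell by 1.20 ± 0.18 on the log2 scale in normoxia (adjusted p = 2.9e-05) and by 1.53 ± 0.20 in hypoxia (adjusted p = 7.84e-06), or by 1.51 without library 3.

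SEMA6C and SEMA6D are of the same class. SEMA6C was at 2.44, 2.26 and 2.80 CPM with DMSO and 0.996, 1.28 and 1.11 CPM with onametostat in normoxia. In hypoxia it was at 1.83, 1.83 and 1.91 CPM with DMSO and at 1.01, 0.531 and 0 CPM with onametostat. Again the groups were apart, in hypoxia by libraries 1 and 2 of onametostat, since the 0 of library 3 allows a level above those with DMSO. Its log2 fold change was -1.08 ± 0.17 in normoxia (adjusted p = 5.17e-05) and -1.10 ± 0.26 in hypoxia (adjusted p = 0.00199), and -1.08 in hypoxia without library 3 (adjusted p = 0.00261).

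SEMA6D was at 11.9, 10.2 and 11.9 CPM with DMSO and 5.59, 7.53 and 5.20 CPM with onametostat in normoxia. In hypoxia it was at 16.6, 14.9 and 17.3 CPM with DMSO and at 6.85, 8.37 and 0 CPM with onametostat. Every library with onametostat was below every library with DMSO. SEMA6D fell by 0.83 ± 0.14 on the log2 scale in normoxia (adjusted p = 6.57e-05) and by 1.17 ± 0.17 in hypoxia (adjusted p = 1.76e-05), or by 1.15 without library 3. SEMA6B, the remaining member of the class, had -0.11 ± 0.10 and 0.21 ± 0.11 and was not called.

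**Figure D2:**
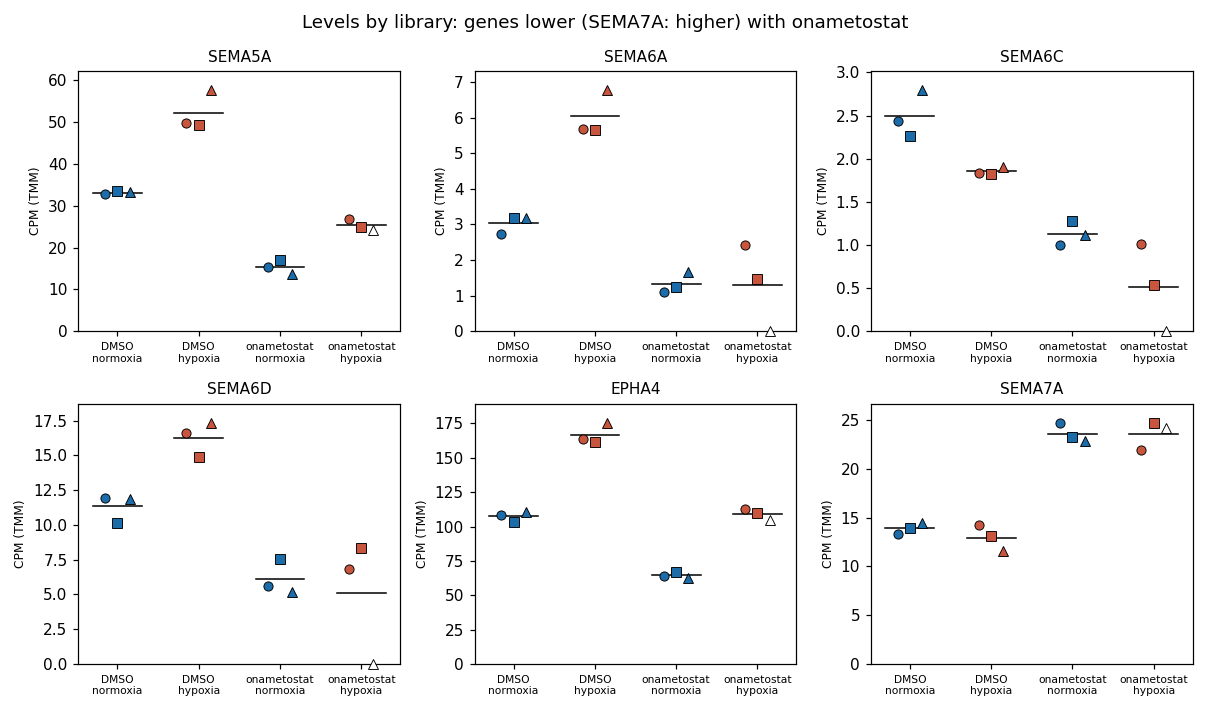
CPM (scaled by TMM) of SEMA5A, SEMA6A, SEMA6C, SEMA6D, EPHA4 and SEMA7A in each of 12 libraries, with circles, squares and triangles for experiments 1, 2 and 3, blue for normoxia, red for hypoxia, and white for library 3 of onametostat in hypoxia, which has few counts. Lines are means of 3 libraries. SEMA7A is the gene that stands higher with onametostat, at 21.9 to 24.7 CPM against 11.6 to 14.5 CPM with DMSO.

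SEMA7A, a semaphorin with a glycolipid anchor that binds plexin C1 and integrins, rose. It was at 13.4, 13.9 and 14.5 CPM with DMSO and 24.7, 23.3 and 22.8 CPM with onametostat in normoxia, and at 14.2, 13.1 and 11.6 against 21.9, 24.7 and 24.2 CPM in hypoxia. No library with onametostat was as low as the highest with DMSO. The log2 fold changes were 0.76 ± 0.08 (adjusted p = 3.06e-07) and 0.84 ± 0.09 (adjusted p = 8.7e-07). In class 4, whose members bind B-type plexins, SEMA4C rose by 0.43 ± 0.06 in normoxia and 0.20 ± 0.07 in hypoxia, SEMA4F fell by 0.35 ± 0.09 in normoxia, and SEMA4D and SEMA4G were not called. The call of SEMA4C in hypoxia was lost without library 2 of DMSO in hypoxia (adjusted p = 0.0858) or library 1 of onametostat in hypoxia (adjusted p = 0.664). It was also lost with DESeq2 and with scaling by library sizes alone. For SEMA4G, 28.1% of the exon bases are shared with the antisense gene MRPL43, and reads of the pair cannot be told apart in counts that do not use strand.

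Among the secreted semaphorins, SEMA3A, which repels axons through NRP1 and A-type plexins, rose by 0.15 ± 0.06 in normoxia (adjusted p = 0.0328) and 0.26 ± 0.06 in hypoxia (adjusted p = 0.00273). SEMA3B fell by 0.28 ± 0.10 (adjusted p = 0.0266) and 0.37 ± 0.13 (adjusted p = 0.0188). SEMA3C and SEMA3F were not called. The normoxic call of SEMA3A was lost without library 2 or 3 of DMSO or library 1 or 2 of onametostat (adjusted p = 0.0663 to 0.224). That of SEMA3B was lost without library 2 of DMSO or library 2 or 3 of onametostat (adjusted p = 0.064 to 0.144), and in hypoxia without library 2 of DMSO (0.0516) or library 1 of onametostat (0.178). The normoxic calls of SEMA3A and SEMA3B were also lost with DESeq2, and that of SEMA3A with scaling by library sizes alone.

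Both neuropilins, the co-receptors of class 3 semaphorins and of vascular endothelial growth factors, rose with onametostat. NRP2 was at 124, 120 and 118 CPM with DMSO and 191, 194 and 186 CPM with onametostat in normoxia, and at 182, 145 and 166 against 253, 226 and 237 CPM in hypoxia. The groups did not overlap at either oxygenation. Its log2 fold change was 0.66 ± 0.06 in normoxia (adjusted p = 1.56e-07) and 0.54 ± 0.07 in hypoxia (adjusted p = 4.03e-06). NRP1 rose by 0.22 ± 0.04 in both oxygenations (adjusted p = 5.42e-05 and 0.000164). Of the plexins, PLXNA3 fell by 0.27 ± 0.08 in normoxia and by 0.31 ± 0.10 in hypoxia. PLXND1, a plexin of vessels, rose by 0.14 ± 0.04 in normoxia, and in hypoxia PLXNA1 rose by 0.23 ± 0.06 and PLXNB1, the receptor of SEMA4D, fell by 0.28 ± 0.10. The calls of PLXNA3 were lost without library 2 of onametostat at the same oxygenation (adjusted p = 0.0937 in normoxia and 0.0915 in hypoxia). That of PLXNA1 was lost without library 2 of DMSO (0.0555) or library 1 of onametostat (0.212) in hypoxia, and that of PLXNB1 without library 1 of DMSO (0.083) or library 2 of onametostat (0.278) in hypoxia. The call of PLXNA1 was also lost with scaling by library sizes alone, and that of PLXNB1 with limma voom. In normoxia PLXNB1 had -0.20 (adjusted p = 0.0577), and leaving out library 3 of onametostat in hypoxia gave -0.21 (adjusted p = 0.0242). PLXNC1, with 9.88% of its exon bases shared with antisense CEP83, was not called.

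PLXNB2, the receptor of SEMA4C, differed between the libraries of 1 condition. It was at 437, 450 and 447 CPM with DMSO and 309, 275 and 296 CPM with onametostat in normoxia. In hypoxia it was at 453, 457 and 463 CPM with DMSO and at 307, 302 and 7547 CPM with onametostat. Library 3 held 2805 counts of PLXNB2, which is 0.696% of its counts and 16.3 times the level of the highest other library, while the other 11 libraries lay between 275 and 463 CPM. With all libraries the log2 fold change of onametostat in hypoxia was 2.49 ± 0.79 (adjusted p = 0.0141) and that in normoxia was -0.60 ± 0.74 (adjusted p = 0.513). Without library 3, PLXNB2 was lower with onametostat at both oxygenations, with -0.60 in normoxia (adjusted p = 1.69e-11) and -0.58 in hypoxia (adjusted p = 4.41e-10).

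**Figure D3:**
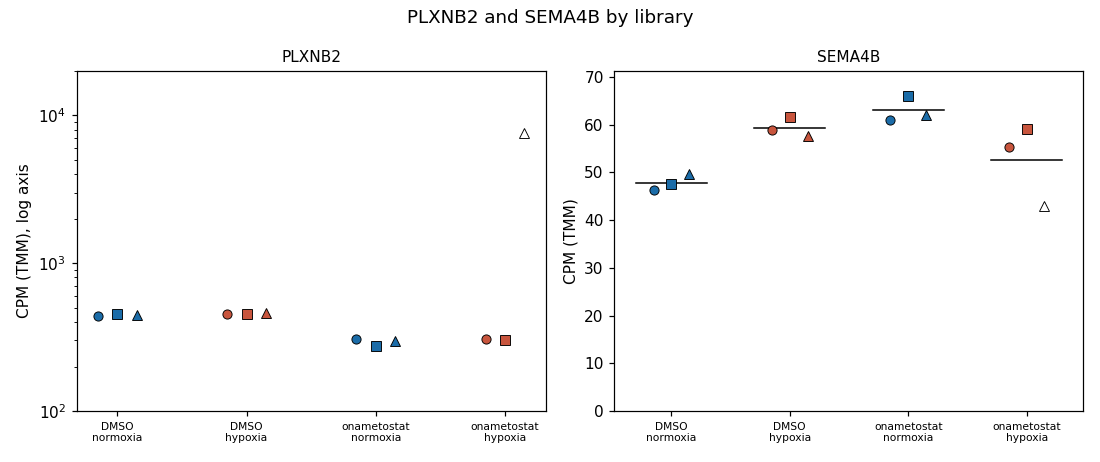
CPM (scaled by TMM) of PLXNB2 (left, log axis) and SEMA4B (right, linear axis from 0) in each of 12 libraries, with symbols and colours by experiment and oxygenation and white for library 3 of onametostat in hypoxia. Lines for SEMA4B are means of 3 libraries. PLXNB2 lies at 275 to 463 CPM in 11 libraries and at 7547 CPM in the white one.

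SLIT2, a secreted repellent, was lower with onametostat in normoxia, at 74.6, 72.3 and 76.1 CPM against 96.6, 94.3 and 95.6 CPM with DMSO, and the groups were apart. It fell by 0.36 ± 0.06 on the log2 scale (adjusted p = 3.99e-05), and in hypoxia the log2 fold change was -0.14 ± 0.06 (adjusted p = 0.0647). Its receptor ROBO1 had 0.16 ± 0.05 in normoxia (adjusted p = 0.0205) and 0.16 ± 0.06 in hypoxia (adjusted p = 0.0405). The hypoxic call of ROBO1 held in 5 of 21 alternatives and the normoxic one in 15 of 21, and it was lost without library 2 or 3 of either group in normoxia (adjusted p = 0.0534 to 0.136) and without any 1 of 10 libraries in hypoxia (adjusted p = 0.0508 to 0.342). Of the netrins and their receptors, NTN4 fell by 0.48 ± 0.12 in hypoxia (adjusted p = 0.00349), which did not hold without library 1 of onametostat in hypoxia (adjusted p = 0.187). NTN1 and the netrin receptors UNC5B and UNC5C, which stood at means of 0.726, 3.28 and 0.868 CPM with DMSO in normoxia, were not called.

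Among the ephrins, EFNB1, a transmembrane ligand, rose by 0.34 ± 0.07 in normoxia (adjusted p = 0.000613) and 0.23 ± 0.08 in hypoxia (adjusted p = 0.0308). EFNB2 rose by 0.67 ± 0.18 in normoxia (adjusted p = 0.00416) from 1.61, 1.26 and 1.00 CPM to 1.83, 2.13 and 2.13 CPM, and 36.4% of its exon bases are shared with antisense genes. DESeq2 gave EFNB2 an adjusted p of 0.0592. EFNA1 and EFNA5, which have a glycolipid anchor, were not called. The hypoxic call of EFNB1 was lost without library 2 of DMSO (adjusted p = 0.0808) or library 2 of onametostat in hypoxia (0.0998). It was also lost with DESeq2 and with scaling by library sizes alone.

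The Eph receptors went both ways. EPHA4 was at 108, 104 and 111 CPM with DMSO and 63.7, 66.9 and 62.8 CPM with onametostat in normoxia, and at 164, 162 and 175 against 112, 110 and 105 CPM in hypoxia. The groups were apart at both oxygenations, with log2 fold changes of -0.74 ± 0.04 (adjusted p = 3.26e-10) and -0.59 ± 0.05 (adjusted p = 2.17e-08). EPHA2 was at 210, 221 and 212 CPM with DMSO and 272, 260 and 267 CPM with onametostat in normoxia, and at 263, 227 and 244 against 383, 336 and 347 CPM in hypoxia. It was higher in every library with onametostat, by 0.31 ± 0.06 (adjusted p = 0.000121) and 0.55 ± 0.06 (adjusted p = 6.99e-07). EPHB4, the receptor of EFNB2, fell by 0.27 ± 0.09 in normoxia (adjusted p = 0.0227), lost without library 2 (0.0548) or 3 (0.0651) of onametostat and with DESeq2. EPHB2 and EPHB3 were not called.

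The comparison of hypoxia with normoxia asks how these genes follow oxygen. With DMSO 14 of 39 rose, against 14.1% of all genes, and 4 fell, against 13.9%. With onametostat 12 were higher, against 7.69% of all genes, and 2 were lower, against 6.16%. Without library 3, which joins SEMA4G, PLXNA1, ROBO1 and EFNB1 to the genes higher with DMSO, the counts were 18 and 4, where 16.3% and 16.4% of all genes were called, and 13 and 2 with onametostat (8.61% and 6.94%), where PLXNB2 left and UNC5C and EPHB4 joined the genes that were higher. The median log2 fold change was 0.14 with DMSO and 0.11 with onametostat, against -0.00 and 0.00 over all genes. With DMSO, 21 of 39 had all hypoxic libraries above all normoxic ones, against 22.0% of all genes, and 7 had them all below, against 23.3%. With onametostat the shares of all genes were 11.8% and 14.7%. Under both treatments 10 genes rose, with 5.06% of all genes doing so, and EPHB3 fell, with 3.87% of all genes. Without library 3, 12 rose (6.03% of all genes), with PLXNA1 and UNC5C added, and EPHB3 fell (4.54%). None of the changes with DMSO went beyond 2-fold, as 0.599% of all genes did upwards and 0.231% downwards. Of 12 known targets of hypoxia, 4 rose with DMSO (EGLN3, NDRG1, ANKRD37 and PDK1), VEGFA fell by 0.47 and P4HA1 fell by 0.20, and CA9 had 0.06 and was not called. With onametostat 5 of the 12 fell, among them VEGFA by 0.62, CA9 by 0.62 and NDRG1 by 0.23, and 7 were not called. This response was weak and mixed, which puts the oxygen labels in doubt. They were kept as given, each hypoxia value below means the libraries labelled hypoxia against those labelled normoxia, and the part of this in the results was not tested.

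SEMA3C, which acts through neuropilins and plexins, had the highest level per kilobase of the semaphorins. It was at 225, 212 and 227 CPM in normoxia and 392, 350 and 408 CPM in hypoxia with DMSO, and at 231, 235 and 238 against 367, 340 and 347 CPM with onametostat. Every hypoxic library was above every normoxic one. It rose by 0.79 ± 0.05 (adjusted p = 5.21e-08) and 0.59 ± 0.06 (adjusted p = 9.63e-06), and by 0.59 with onametostat without library 3. SEMA3A rose by 0.41 ± 0.06 with DMSO and 0.52 ± 0.07 with onametostat, from 47.6 to 56.5 CPM to 65.2 to 72.8 CPM and from 56.3 to 60.6 CPM to 80.4 to 99.5 CPM.

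**Figure D4:**
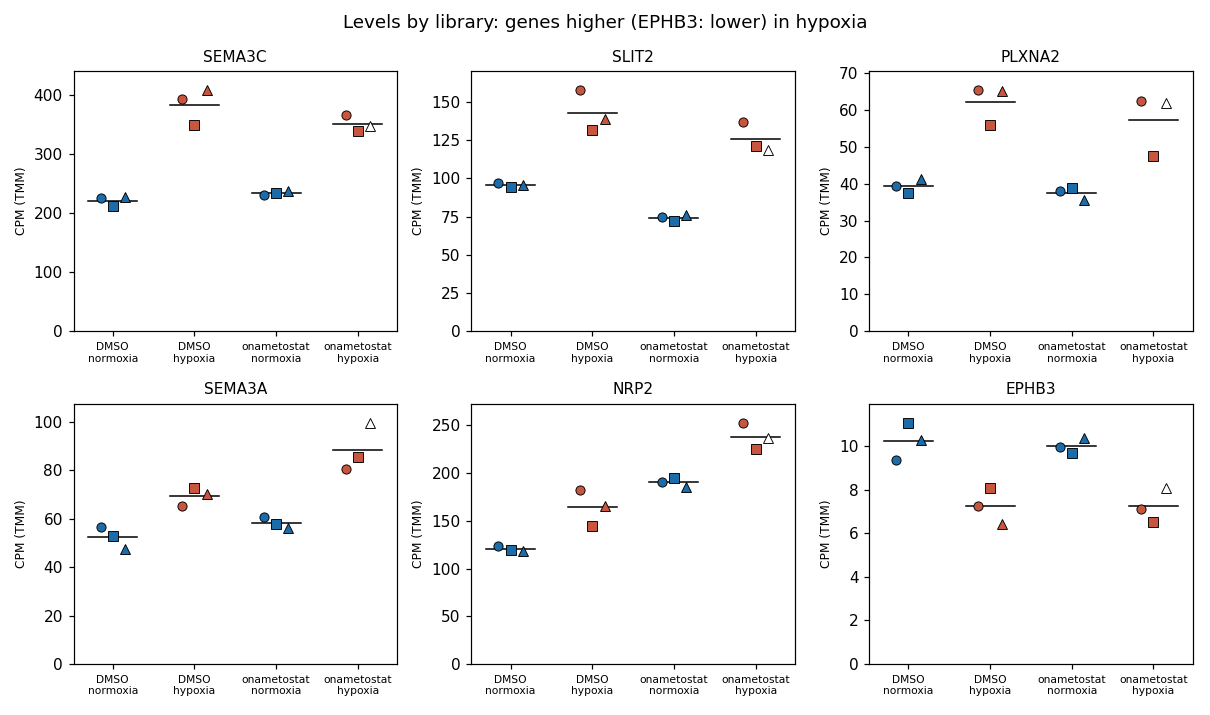
CPM (scaled by TMM) of SEMA3C, SLIT2, PLXNA2, SEMA3A, NRP2 and EPHB3 in each of 12 libraries, with symbols and colours by experiment and oxygenation and white for library 3 of onametostat in hypoxia. Lines are means of 3 libraries. In the first 5 genes the red and white symbols lie above the blue ones of the same treatment, and for EPHB3 below.

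In the membrane, SEMA5A rose by 0.66 ± 0.07 with DMSO (adjusted p = 6.19e-06) and 0.76 ± 0.09 with onametostat (adjusted p = 8.84e-05), and SEMA6B by 0.43 ± 0.09 (adjusted p = 0.00202) and 0.75 ± 0.11 (adjusted p = 0.000463). SEMA6A rose by 0.99 ± 0.14 (adjusted p = 5.41e-05) and SEMA6D by 0.53 ± 0.12 (adjusted p = 0.00313) with DMSO. With onametostat these had 0.66 ± 0.26 (adjusted p = 0.101) and 0.19 ± 0.19 (adjusted p = 0.56). SEMA6C had -0.41 ± 0.15 with DMSO and was not called. SEMA4B rose by 0.31 with DMSO (adjusted p = 0.000149) and was not called with onametostat. The comparisons of onametostat and of hypoxia share libraries, so the values of SEMA5A, SEMA6A, SEMA6D and EPHA4 are given side by side and their opposite signs are not counted as a result.

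Of the receptors of semaphorins, PLXNA2 was at 39.2, 37.5 and 41.3 CPM in normoxia and 65.3, 55.8 and 65.1 CPM in hypoxia with DMSO, and at 38.1, 38.9 and 35.7 against 62.4, 47.6 and 61.9 CPM with onametostat. The groups did not overlap. It rose by 0.66 ± 0.08 (adjusted p = 1.29e-05) and 0.58 ± 0.09 (adjusted p = 0.000523), the latter not without library 1 of onametostat in hypoxia (adjusted p = 0.0607). NRP2 rose by 0.45 ± 0.06 and 0.33 ± 0.07, and NRP1 by 0.18 ± 0.04 and 0.17 ± 0.04. The calls of NRP2 and NRP1 with onametostat were lost without library 1 of onametostat in hypoxia (adjusted p = 0.0816 and 0.0567). With the 2 compared groups alone, the calls of NRP1 and PLXND1 with onametostat were also lost. PLXNC1 fell by 0.49 ± 0.09 with DMSO (adjusted p = 0.000602). PLXNA1 rose by 0.27 ± 0.06 with onametostat, lost without library 1 of that condition (adjusted p = 0.246), and PLXND1 fell by 0.17 ± 0.04 (adjusted p = 0.0147), lost without library 1 (0.0692) or 2 (0.069) of it or library 3 of onametostat in normoxia (0.0502). For PLXNB2 with onametostat the log2 fold change was 3.13 ± 0.81 (adjusted p = 0.0167) with library 3 and 0.06 (adjusted p = 0.41) without it, and its call was also lost without library 1 (0.0517) or 3 (0.0522) of onametostat in normoxia.

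SLIT2 was at 96.6, 94.3 and 95.6 CPM in normoxia and 158, 132 and 139 CPM in hypoxia with DMSO, and at 74.6, 72.3 and 76.1 against 137, 121 and 118 CPM with onametostat. The groups were apart under both treatments. It rose by 0.58 ± 0.06 (adjusted p = 2e-06) and 0.80 ± 0.06 (adjusted p = 2.07e-06). UNC5C, a netrin receptor for repulsion, rose with DMSO from 0.914, 0.643 and 1.05 CPM to 1.26, 1.44 and 1.82 CPM, by 0.89 ± 0.23 (adjusted p = 0.00735). That call was lost without library 2 of DMSO in normoxia (adjusted p = 0.0936) or library 3 of DMSO in hypoxia (0.0613).

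Of the Eph family, EPHA4 rose by 0.64 ± 0.04 with DMSO (adjusted p = 3.56e-08) and 0.78 ± 0.05 with onametostat (adjusted p = 5.88e-08), from the levels given above. EPHA2 rose by 0.19 ± 0.06 (adjusted p = 0.0148) and 0.42 ± 0.06 (adjusted p = 0.000182). The former was lost without library 1 of DMSO in normoxia (adjusted p = 0.0535) or library 1 of DMSO in hypoxia (0.0845). EPHB3 was at 9.36, 11.1 and 10.3 CPM in normoxia and 7.24, 8.09 and 6.45 CPM in hypoxia with DMSO, and at 9.96, 9.68 and 10.4 against 7.14, 6.51 and 8.07 CPM with onametostat. It fell by 0.50 ± 0.09 (adjusted p = 0.000632) and 0.52 ± 0.13 (adjusted p = 0.012), the latter not without library 1 of onametostat in hypoxia (adjusted p = 0.113). EPHB2 fell by 0.28 ± 0.05 and EFNA5 by 0.48 ± 0.11 with DMSO.

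The interaction asks whether the effect of onametostat differed between oxygenations. SEMA4B was the 1 guidance gene called, as lower, where 0.272% of all genes were. It was at 46.3, 47.5 and 49.7 CPM with DMSO and 61.0, 66.0 and 62.0 CPM with onametostat in normoxia, and at 58.8, 61.6 and 57.7 against 55.4, 59.1 and 43.0 CPM in hypoxia. The groups were apart in normoxia and overlapped in hypoxia. Its log2 fold change with onametostat was 0.40 ± 0.05 in normoxia (adjusted p = 2.22e-06) and -0.08 ± 0.06 in hypoxia (adjusted p = 0.282), a difference of -0.48 ± 0.07 (adjusted p = 0.026), and -0.47 without library 3 (adjusted p = 0.00377). The call was lost when any 1 of 7 other libraries was left out (adjusted p = 0.0534 to 0.0898).

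Further genes of these pathways were taken from lists. Of 20 kinases, adaptors and actin effectors 19 were measured, and with onametostat 8 rose and 5 fell in normoxia (27.2% and 29.3% of all genes) and 6 rose and 5 fell in hypoxia (25.6% and 26.4%). In hypoxia 5 of them rose and 3 fell with DMSO (14.1% and 13.9% of all genes), and 3 rose and 2 fell with onametostat (7.69% and 6.16%). VASP, which promotes actin growth, rose with onametostat by 0.56 ± 0.07 in normoxia and 0.60 ± 0.08 in hypoxia, and CDK5, a kinase downstream of semaphorins, fell by 0.55 ± 0.07 and 0.69 ± 0.09. L1CAM, an adhesion molecule, rose in hypoxia by 0.46 ± 0.04 with DMSO and 0.44 ± 0.04 with onametostat. Of 8 CRMP and MICAL proteins, which act on the cytoskeleton after semaphorins bind, 7 were measured, and with onametostat 3 rose and 2 fell in normoxia, where 27.2% and 29.3% of all genes did, and 3 rose and 3 fell in hypoxia, where 25.6% and 26.4% did. Of them DPYSL4 fell by 0.34 ± 0.04 and 0.35 ± 0.05. Of 7 measured genes of the other Slit, Robo and netrin families, 1 rose and 2 fell with onametostat in each oxygenation, against the same shares of all genes, and 1 rose in hypoxia under each treatment (14.1% and 7.69% of all genes). That gene was NEO1, a netrin receptor related to DCC, with 0.46 ± 0.07 with DMSO and 0.29 ± 0.08 with onametostat. Of the 5 other ephrins and Eph receptors measured, edgeR's quasi-likelihood test called 0 with onametostat in normoxia, where 56.5% of all genes were called in either direction. At an unadjusted p under 0.05 there were 2, a cut for which the share of all genes was not computed.

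SEMA3F, SEMA4D, SEMA4G, NTN1, UNC5B and EFNA1 were called in none of the 5 comparisons with all libraries, and SEMA4G was called higher in hypoxia with DMSO without library 3 of onametostat in hypoxia (adjusted p = 0.0491). A p above the threshold does not show that they were unchanged, and the lowest of them, NTN1 and SEMA4G, had means of 0.726 and 0.984 CPM with DMSO in normoxia.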

How the data were processed

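RNA of 12 cultures of T98-G was sequenced by the authors. Their pipeline ran fastp for trimming, STAR for alignment and featureCounts for gene-level counting, followed by edgeR's filter on expression. The deposited table holds raw whole-number counts per gene, although it is described as normalized. GRCh38 is the build in the methods, whereas GRCh37, with STAR 2.7.10a, stands in the notes on processing of the submitters, a difference that could not be settled, and the methods name another STAR version. The library kit marks strand, but featureCounts was run with default settings, which do not use strand. Reads from bases shared by overlapping antisense genes could therefore not be assigned by strand. Deposited labels alone set the direction of each comparison, as treated minus control and hypoxia minus normoxia.

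From these counts, levels were computed as CPM scaled by TMM. Per-kilobase levels used exon lengths of GENCODE v44. Total counts per library, given in the report, set the precision. One quasi-likelihood model of 4 conditions over 12 libraries was fitted to 14698 genes in edgeR 4.0.16 (R 4.3.3), with Benjamini-Hochberg adjustment over all genes and calls at an adjusted p of 0.05. SE was the log2 fold change over the square root of F. The fit was tested on simulated data. Alternatives were RLE factors, library sizes alone, DESeq2 1.42.0, the likelihood ratio test, limma 3.58.1 voom with quality weights, a filter of 1 CPM in 3 libraries, the 2 compared groups alone, a replicate block, a 2-fold rule and libraries left out.

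The guidance genes and the other lists were chosen with earlier results of these data known. By rule, values per library were given for guidance genes called with an absolute log2 fold change above 1, for SEMA5A, SEMA6A, SEMA6C and SEMA6D and for PLXNB2, and fold changes for the other called ones. Up to 4 genes per further list with the smallest adjusted p could be named. Further genes given library by library were chosen after their values were seen. Members of a family are not replicates. Sequences are from RefSeq. One list of pathway genes is not reported here.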

Additional observations from a re-analysis of the deposited data

Results flagged for a closer look

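SEMA4B was the guidance gene whose response to onametostat differed between oxygenations by the test of the difference itself. The log2 fold change was 0.40 in normoxia and -0.08 in hypoxia, a difference of -0.48 ± 0.07 (SE, edgeR's quasi-likelihood test, adjusted p = 0.026). All 3 libraries with onametostat were above all 3 with DMSO in normoxia, and the groups overlapped in hypoxia. The difference was -0.47 without library 3 of onametostat in hypoxia (adjusted p = 0.00377), and it lay between -0.50 and -0.44 without each of 7 other libraries, with adjusted p of 0.0534 to 0.0898.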

How the results depend on the processing

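Of 73 calls of single guidance genes, 48 kept their direction and their side of the threshold under every alternative, apart from the 2-fold rule, and 88 of the values under alternatives missed the threshold. With a log2 fold change above 1 required, onametostat left 0 genes higher and 3 lower in normoxia and 1 higher and 4 lower in hypoxia, hypoxia left 0 and 0 with DMSO and 1 and 0 with onametostat, and the interaction 0 lower. The 1 higher gene was PLXNB2 in both cases, at 2.49 and 3.13. Without library 3 of onametostat in hypoxia its values were -0.58 and 0.06. In hypoxia 6 genes were higher with onametostat with library sizes alone and with DESeq2. With onametostat, 4 genes were lower in hypoxia after the filter on low counts and 1 with the 2 compared groups alone. Without libraries 2 and 3 of onametostat in hypoxia, 1 gene was called higher for the interaction. The causes were not tested. PLXNB2 reversed for onametostat in hypoxia, to -0.49 with limma voom, -0.58 without library 3 and -0.58 without libraries 2 and 3 of that condition, and it ranged from -0.58 to 3.04 with 1 library left out. No scaling shifted the median of all genes by more than 0.1, the largest shift being -0.067.

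With 1 library left out in turn, onametostat gave 9 to 11 higher and 8 to 12 lower in normoxia and 6 to 10 higher and 7 to 10 lower in hypoxia. Hypoxia gave 13 to 18 higher and 4 to 5 lower with DMSO and 8 to 13 higher and 0 to 3 lower with onametostat, and the interaction gave 0 to 0 higher and 0 to 1 lower. The 6 came without library 2 of DMSO in hypoxia, and the 0 and 1 genes lower in hypoxia with onametostat came without its libraries 1 and 2.

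No pairing by experiment number was seen: 0 of 18 same-numbered pairs had a correlation of deviations over 0.1 (-0.0767 to 0.0752). Of 36 pairs with other numbers, 0 did as well (-0.119 to 0.0976). The deviations are from means of 3 libraries and hold counting error, so pairing is not excluded. With the replicate block, onametostat gave 11 higher and 12 lower in normoxia and 9 and 10 in hypoxia, hypoxia gave 15 and 4 with DMSO and 12 and 3 with onametostat, and the interaction 0 and 1.

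The low total of counts limits the genes under 8.07 CPM in library 3 of onametostat in hypoxia, where 7 guidance genes had no count.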
